A study of Mus musculus with 6 samples.

Results

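The untreated arm of a mouse glioma culture experiment is described here by the level of its transcripts. The labels call the cells glioma cells, give astrocytes as their source and Ink4a/Arf-/- with PDGFRa and PDGF-A as their genotype, and state 0 µM of SHP099, a small-molecule inhibitor of the phosphatase SHP-2. They give neither the form of the PDGF constructs nor the number of clones or animals behind the culture. The arm was chosen by this dose label and comprises 2 of the 6 deposited files, which are lanes 6 and 7 of 1 of 3 libraries. The other libraries of the series carry the same genotype label with 5 and 10 µM SHP099 and are not compared here. Polyadenylated RNA was sequenced, and levels are in FPKM, that is, fragments per kilobase of transcript per 1000000 mapped fragments. Where 1 gene is given 2 values, these are lanes 6 and 7, and a single value for a gene is the mean of the lanes. The lanes are listed as separate samples, and they were read as repeat runs of 1 library (n = 1) because their titles are alike up to the lane. No label names a second culture, so the lanes are taken to show sequencing error and no spread between cultures, and nothing was tested.

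PDGF-A binds and dimerises the receptor tyrosine kinase PDGFRα, which normally drives the growth of oligodendrocyte precursor cells and of many mesenchymal cells. SHP-2, encoded by Ptpn11, is recruited to phosphorylated receptors and relays their signal to RAS and ERK. The Ink4a/Arf locus encodes 2 inhibitors of the cell cycle, INK4A acting on CDK4 and CDK6 and ARF acting on MDM2 and so on p53, and both are often lost in glioblastoma, an aggressive glioma. In glia, PDGF signalling with loss of this locus is a widely used model of that tumour.

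The lanes held 47300000 and 47580000 fragments, as read back from the whole-fragment spacing of weakly expressed genes. A transcript of 2 kb at 1 FPKM then rests on 94.6 and 95.2 fragments, with a counting error of 10.3% per lane, and 3 fragments equal 0.0317 and 0.0315 FPKM. A gene is called present here at a mean of at least 1 FPKM, a threshold that 10719 of 21906 protein-coding genes reached (48.9%), and 7349 reached 10 FPKM (33.5%). In all, 6964 protein-coding genes were listed at 0 in both lanes, and 88 at 1000 FPKM or more held 27.1% of the summed FPKM. Genes that every cell uses, such as Actb and the subunit gene Emc7, were all present: 45 of 45 were above 10 FPKM, with Emc7 lowest at 14.8 FPKM, so a value listed at 0 was not met among them. Between lanes the 11806 present symbols differed by a median of 0.05 on the log2(FPKM + 1) scale, and 99 of them differed by at least 1.5-fold in FPKM + 1. That scale shrinks differences near the threshold. Across all symbols, 385 lay at or above 1 FPKM in 1 lane and below it in the other. Of the present symbols 24, of which 1 is protein-coding, were listed at 0 in 1 lane.

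Every gene of the constructs, the targeted locus and the drug target was present. Pdgfra, the receptor gene, was at 77.3 and 72.3 FPKM, and its ligand gene Pdgfa at 21 and 21.3 FPKM. Ptpn11, which encodes SHP-2, was at 60.3 and 57.6 FPKM. Receptor and phosphatase thus both lay above the ligand in each lane. FPKM per gene do not separate an endogenous from an introduced Pdgfra or Pdgfa. Cdkn2a, the gene of the Ink4a/Arf locus, was at 527 and 544 FPKM and ranked 158th of all protein-coding genes in a library labelled Ink4a/Arf-/-. Its chromosomal neighbours Cdkn2b, which encodes the related inhibitor INK4B, and Mtap, a methionine salvage enzyme, were at 58.3 and 92.1 FPKM. The value per gene does not say which Cdkn2a exons the fragments came from, so it checks neither the deletion nor the absence of either protein.

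Because 1 value covers both products of Cdkn2a, the bases ahead of its pair of first exons are printed to show what that value merges. RefSeq (GRCm38.p6) lists 2 starts on the minus strand, the upstream one for ARF and the downstream one for INK4A, and the 150 bases before each lie at chr4:89294620-89294769 and chr4:89282193-89282342. Capitals mark CG dinucleotides, of which the shown stretches hold 22 and 2.
Cdkn2a, upstream start: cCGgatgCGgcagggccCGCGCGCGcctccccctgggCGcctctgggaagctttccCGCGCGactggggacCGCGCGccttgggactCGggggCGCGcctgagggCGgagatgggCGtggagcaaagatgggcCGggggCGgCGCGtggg
Cdkn2a, downstream start: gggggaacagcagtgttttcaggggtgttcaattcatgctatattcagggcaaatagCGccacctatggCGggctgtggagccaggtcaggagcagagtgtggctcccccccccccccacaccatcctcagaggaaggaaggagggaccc
Coordinates in the library's own files are not used, and the letters are those of the reference, not of these cells.

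Ribosomal and mitochondrial genes made up most of the highest messages, and a galectin, S100 proteins, housekeeping enzymes, ferritin and osteopontin were among the rest. The 30 highest protein-coding genes held 14.6% of the summed FPKM, and 15 of them encode ribosomal proteins and 5 are mitochondrial. Among the remaining 10, Lgals1, which encodes the secreted lectin galectin-1, led with 5044 and 5085 FPKM. S100a6, a calcium-binding protein of the S100 family, followed with 3807 and 3756 FPKM. Eef1a1, a translation elongation factor, and Gapdh, a glycolytic enzyme, were at 3527 and 3108 FPKM, and Fth1, the ferritin heavy chain, was at 2316 FPKM. Spp1, which encodes the secreted phosphoprotein osteopontin, had 2169.8 and 2173 FPKM, and S100a4, a marker of fibroblasts and of motile cells, had 2170 and 2121 FPKM. Those levels overlap between lanes, so Spp1, S100a4 and Tpt1 at 2150.1 FPKM have no order. Hsp90ab1, a chaperone, and Ppia, a prolyl isomerase, closed the 10 with 1846 and 1842 FPKM.

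S100 genes and annexins, which bind calcium and membranes, were mostly present: 18 of 28 reached 1 FPKM (64.3%, against 48.9% of all protein-coding genes). The list median was 11.6 FPKM against 0.706 FPKM over all protein-coding genes. S100a11 and its family member S100a10 were at 1227 and 874 FPKM, and Anxa2, the annexin that pairs with S100A10, was at 752 FPKM. The astrocytic member S100b was at 0.0424 FPKM and the myeloid S100a8 at 0.0849 FPKM. The family thus held leading genes of the library and members near 0. The promoter bases of the 2 highest members are printed because both genes lie in the S100 cluster on chromosome 3. They are the 150 bases before the start in RefSeq (GRCm38.p6, plus strand), at chr3:90612744-90612893 and chr3:90603620-90603769. Capitals mark CG dinucleotides and, where it occurs, TATAAA.
S100a6: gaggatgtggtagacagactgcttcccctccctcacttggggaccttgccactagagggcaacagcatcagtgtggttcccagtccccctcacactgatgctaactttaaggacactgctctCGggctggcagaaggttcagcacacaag
S100a4: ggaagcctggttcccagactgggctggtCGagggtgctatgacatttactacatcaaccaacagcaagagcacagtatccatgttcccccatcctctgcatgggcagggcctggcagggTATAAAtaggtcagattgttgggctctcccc
Each stretch holds 1 CG. In S100a4 the motif TATAAA, searched as these letters on the gene's strand, starts 31 bases before the start, and 1.99% of 32851 RefSeq promoters hold it between 40 and 20 bases before theirs (13.6% hold it anywhere in 300 bases on either strand). A match of letters is a description and not a site.

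Genes of translation and respiration took a large share of the library. The 78 ribosomal protein genes counted held 16.5% of the summed FPKM, and the lowest, Rps27l, was at 240.2 FPKM. Rps27l is itself a ribosomal-protein-like gene, whereas the like genes Rpl3l, Rpl10l, Rpl39l, Rpl7l1 and Rpl22l1 were left out by name. The lowest member therefore depends on that choice. Rps2 and Rps18 were at 4341 and 3917 FPKM. The 15 mitochondrial genes measured held 4.89%, led by mt-Atp8 at 12961 FPKM and mt-Co1 at 6493 FPKM. Some other mitochondrial genes were far lower. All mitochondrial values, that of mt-Atp8 included, are given as uncertain, since how fragments shared with near-identical nuclear copies were counted is not stated. The gene mt-Atp6 was listed at 3.06 and 20.5 FPKM, and mt-Co3 was at 2.44 FPKM. An unnamed gene model, AC153954.1, was listed at 13829 FPKM, or 2.15% of the sum.

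Several defining markers of a differentiated astrocyte were near 0, and connective tissue markers were the most abundant. Of 20 astrocyte markers 8 were present, and the list median was 0.516 FPKM. The present ones were led by Gja1, the gap junction protein connexin 43 (31.2 FPKM), Glul, glutamine synthetase (24.7 FPKM), Clu, the chaperone clusterin (24.7 FPKM), and Slc1a3, the glutamate transporter GLAST (13.8 FPKM). Gfap, the intermediate filament that defines astrocytes, was at 0.0308 FPKM, below the value of 3 fragments of a 2 kb transcript, and S100b at 0.0424 FPKM. The water channel gene Aqp4, the connexin gene Gjb6 and the radial glial lipid carrier gene Fabp7 were listed at 0 in both lanes. Aldh1l1, a folate enzyme, was at 0.229 FPKM, Slc1a2, the main glutamate transporter of mature astrocytes, at 0.0954 FPKM, and Apoe, the lipid carrier, at 0.955 FPKM. In a bulk sample fewer cells of a type and less RNA per cell cannot be told apart. The cells are therefore called here by their label, untreated glioma cells. Of the defining markers, Gfap, Aqp4, S100b, Aldh1l1 and Slc1a2 were below 1 FPKM, while Gja1, Glul, Clu and Slc1a3 were present.

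Neural stem cell markers were present in 10 of 20 cases, with a median of 0.908 FPKM. Vim, the filament vimentin, was at 1358 FPKM, Cd44, the hyaluronan receptor, at 88.9 and 90.3 FPKM, and Bmi1, a Polycomb protein, at 41.7 FPKM. Sox2, a transcription factor of neural stem cells, was at 38.7 FPKM, Nes, the filament nestin, at 19 FPKM and Sox9 at 6.51 FPKM. Their partners in the same cells of the brain were low: Pax6 was at 0.416 FPKM, Msi1 at 0.260 FPKM, Prom1 at 0.0559 FPKM, and Hes5 and Sox1 were listed at 0. Within the list Vim, Sox2 and Nes were thus present, while Pax6, Msi1, Prom1, Hes5 and Sox1 were not. As a whole the list was present about as often as protein-coding genes in general.

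The oligodendrocyte lineage was represented by few genes. Of 18 precursor markers 2 were present (11.1%, against 48.9% of all protein-coding genes), Pdgfra and Vcan, the matrix proteoglycan versican (70.9 FPKM). Olig1, Olig2 and Nkx2-2, which specify these precursors, were listed at 0 in both lanes, as were Ptprz1 and Bcan, and Cspg4, the NG2 proteoglycan, was at 0.0734 FPKM. Of 15 markers of mature oligodendrocytes 2 were present (13.3%), Aspa, an aspartoacylase (45.0 FPKM), and Cnp, a myelin enzyme (8.32 FPKM). The myelin gene Mbp was at 0.104 FPKM. Pdgfra was therefore not accompanied by its usual precursor factors.

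By median level, connective tissue markers stood at the other end. Of 24 fibroblast and meningeal markers 14 were present (58.3%, beside 48.9% of all protein-coding genes). Their median of 16.7 FPKM was the highest among the lists of cell type markers. S100a4, Col1a2 (1231 FPKM), Col1a1 (655 FPKM), Fn1, the matrix protein fibronectin (485 FPKM), and Col3a1 (321 FPKM) led this list. The transcription factors Prrx1, Twist2 and Twist1 were at 50.4, 39.4 and 31.9 FPKM, and Dcn, the proteoglycan decorin, at 28.1 FPKM. Other fibroblast genes were not met: Thy1, Tcf21 and Foxd1 were listed at 0, and Lum and Fap were at 0.0764 and 0.0938 FPKM. Of 16 pericyte and smooth muscle markers 9 were present (56.2%), among them Ndufa4l2 (75.4 FPKM), Acta2, smooth muscle actin (63.1 FPKM), and Pdgfrb (39.7 FPKM). Rgs5 was at 0.131 FPKM. Of 16 Schwann and neural crest markers 6 were present (37.5%), led by Pmp22, a myelin protein gene (69.2 FPKM), and Tfap2a (9.56 FPKM). Sox10 was at 0.00850 FPKM and Ngfr at 0.

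Markers of other cells that a brain culture can hold were mostly absent, where 48.9% of all protein-coding genes were present. Of 20 microglial and macrophage markers 3 were present, among them Tmem119 at 63.9 FPKM and Cd68 at 2.03 FPKM, whereas Aif1, C1qa and Tyrobp were listed at 0 and Csf1r, the microglial survival receptor, was at 0.0203 FPKM. Of 16 endothelial markers 3 were present, with Eng at 34.9 FPKM, but Kdr and Cldn5 were listed at 0 and Pecam1 was at 0.0526 FPKM. Of 20 neuron markers 2 were present, Stmn2, a microtubule regulator (241 FPKM), and Tubb3, a neuronal tubulin (14.6 FPKM), with Dcx, Snap25 and Gad1 at 0. None of 13 ependymal and choroid plexus markers and none of 18 epithelial markers reached 1 FPKM. Of 21 markers of muscle, cartilage, bone and fat 3 were present, Spp1, Runx2 (24.1 FPKM) and Sox9.

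**Figure D1:**
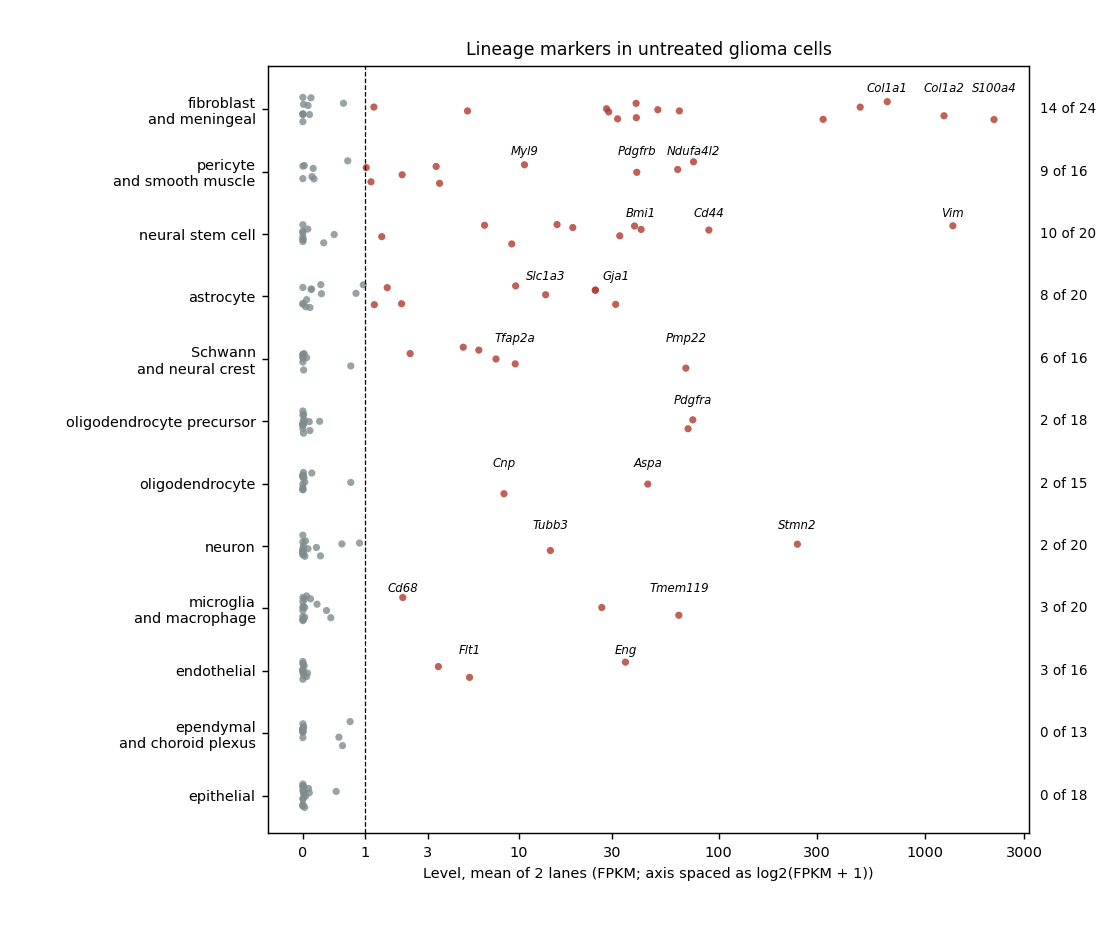
Each point is 1 marker gene of a lineage list in the untreated library, at its mean of 2 lanes in FPKM on an axis spaced as log2(FPKM + 1), with the share present at the right and the threshold of 1 FPKM dashed. The fibroblast and meningeal list has 14 of 24 genes present, the astrocyte list 8 of 20 and the epithelial list 0 of 18.

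Lists written from human glioblastoma expression classes, used here as names of gene groups and not as a call of class, also differed in how many members were present. All 14 listed classical genes and 19 of 20 mesenchymal genes reached 1 FPKM, with Chil1 listed at 0 as the exception. The share over all protein-coding genes was 48.9%. Of 14 proneural genes 5 reached 1 FPKM, namely Pdgfra, Tcf4, Sox2, Nkain1 and Ncam1, at 32.1 to 74.8 FPKM, while Olig2, Dcx and Bcan were at 0. The mesenchymal list, which includes Vim, Anxa2, Timp1 (163 FPKM) and Lox, a matrix crosslinking enzyme (96.5 FPKM), had a median of 24.4 FPKM. The classical list, with Smo, Gas1 (50.2 FPKM) and Egfr (10.6 FPKM), had a median of 15.9 FPKM. Its highest member, Cdkn2a at 536 FPKM, is the gene of the targeted locus. Pdgfa in this list and Pdgfra in the proneural list are genes of the constructs.

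Receptor tyrosine kinases were present in 28 of 58 cases, a share of 48.3% near the 48.9% of all protein-coding genes. Fgfr1, a fibroblast growth factor receptor, was highest at 155 and 158 FPKM. Ddr2, a receptor for fibrillar collagen, was at 117 and 113 FPKM, and Axl, a receptor for GAS6, at 109 and 107 FPKM. Pdgfra came next, so 3 receptors lay above it in both lanes, and these first 4 did not overlap between neighbours in that order. Below them, Ryk was at 49.6 and 48.5 FPKM, Ptk7 at 41.6 and 42.1 FPKM and Pdgfrb at 39.7 FPKM. Met, the HGF receptor, was at 23.9 FPKM, Igf1r at 14.8 and 14.7 FPKM and Tyro3 at 14.9 and 14.6 FPKM, so the last pair overlapped. Egfr, the receptor often amplified in glioblastoma, was at 10.6 FPKM. In all, 19 of these genes, including Kit, Kdr, Erbb4, Ntrk2 and Ntrk3, were listed at 0, and Erbb3 was at 0.00547 FPKM.

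**Figure D2:**
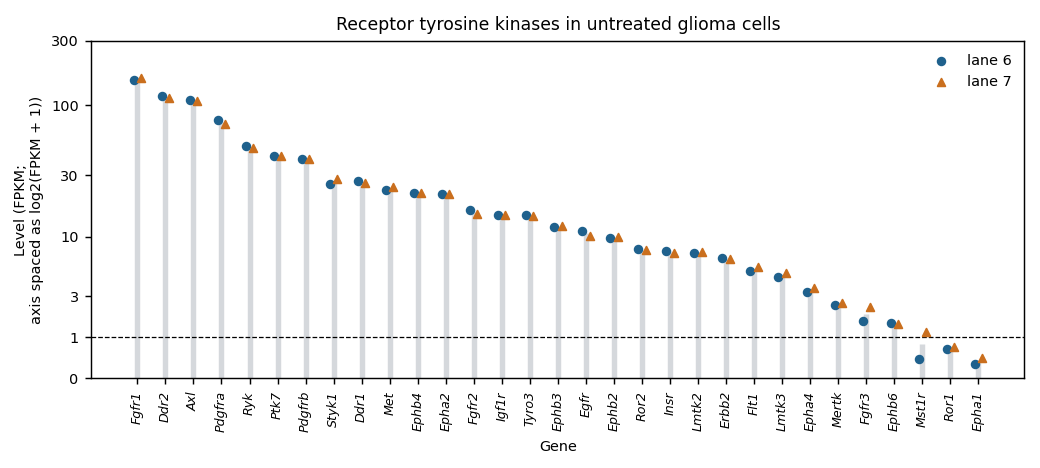
The 31 of 58 receptor tyrosine kinase genes whose mean reached 0.1 FPKM in the untreated library; bars give the mean, circles lane 6 and triangles lane 7, in FPKM on an axis spaced as log2(FPKM + 1), with 1 FPKM dashed. Fgfr1, Ddr2 and Axl lie above Pdgfra in both lanes, and Mst1r, at 0.381 and 1.20 FPKM, lies on either side of the threshold.

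Other receptor families varied in how many members were present, beside 48.9% of all protein-coding genes. Cytokine and TNF receptors had 28 of 53 (52.8%), led by Tnfrsf12a, the TWEAK receptor, at 246 FPKM. Il6st, the shared signalling chain gp130, was at 50.8 and 51.6 FPKM. The specific chains were partly absent, with Lifr at 0.0649 FPKM and Cntfr at 0, while Il6ra was at 13.6 FPKM. Il1rl1, the IL-33 receptor, was at 39.0 and 41.1 FPKM. Il18rap, a chain of the IL-18 receptor, was at 38.3 FPKM, while Il18r1, its partner, was at 0.198 FPKM. TGF-beta and BMP receptors had 9 of 15 (60.0%), among them Tgfbr2 (30.5 FPKM) and Tgfbr3 (21.4 FPKM). NOTCH, WNT and hedgehog receptors had 18 of 28 (64.3%). Gas1, a hedgehog co-receptor, was at 50.6 and 49.8 FPKM, Smo at 37.8 and 37.6 FPKM, and Notch2 at 25.4 FPKM against Notch1 at 1.51 FPKM. G protein-coupled receptors had 29 of 107 (27.1%), led by F2r, the thrombin receptor, at 51.3 and 52.1 FPKM, and Cxcr4 and Ednrb were listed at 0. Integrins had 14 of 26 (53.8%), with Itgb1 at 167 FPKM in each lane, Itgb5 at 70.0 FPKM and Itgav at 40.7 FPKM. Itga5, the fibronectin-binding chain, was at 35.9 FPKM. Glutamate and GABA receptor and transporter genes had 6 of 34 (17.6%), led by Slc3a2, an amino acid carrier subunit (149 FPKM). Connexins and pannexins had 5 of 20 (25.0%). Among other surface proteins 43 of 60 were present (71.7%), such as Cd63 at 559.5 FPKM and Cav1, caveolin, at 414 FPKM.

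Secreted growth factors were present in 53 of 110 cases (48.2%), near the 48.9% of all protein-coding genes, and chemokines and cytokines in 21 of 59 (35.6%), a lower share. Mdk, the growth factor midkine, was highest of the first group at 347 FPKM, followed by Cyr61, a matricellular protein, at 182 FPKM, and Fgf7, a ligand of FGFR2, at 112 FPKM. Vegfa, the angiogenic factor, was at 83.9 and 85.8 FPKM, and Csf1, the macrophage growth factor, at 74.8 and 74.3 FPKM. Mif was at 711 FPKM, Lgals3 at 222 FPKM, and Ccl2, which attracts monocytes, at 176 and 165 FPKM. Cxcl12, Cx3cl1 and Cxcl1 were at 64.5, 62.2 and 56.0 FPKM.

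Ligands were then set beside 1 receptor at a time. In 70 ligand and receptor pairs, both genes were present in 23, the ligand alone in 26, the receptor alone in 19 and neither in 2. Of 36 receptor tyrosine kinase pairs 15 had both, for example Pdgfa with Pdgfra, Pdgfc (18.4 FPKM) with Pdgfra, Fgf7 with Fgfr2 (15.6 FPKM), Hgf (2.18 FPKM) with Met, and Efnb2 (26.2 FPKM) with Ephb4 (21.9 FPKM). In 13 the ligand was present without the receptor it was paired with, as Csf1 with Csf1r at 0.0203 FPKM, Kitl (27.6 FPKM) with Kit at 0, and Angpt1 (27.4 FPKM) with Tek at 0.0134 FPKM. Vegfa was paired with Kdr, listed at 0, but its other receptor Flt1 was at 5.36 FPKM and its co-receptor Nrp1 at 23.1 FPKM, so a count by pairs does not say that a ligand had no receptor at all. In 6 the receptor stood alone, as Axl with Gas6 at 0 and Pdgfrb with Pdgfb at 0.0433 FPKM. Of 23 chemokine and cytokine pairs both were present in 2, Cxcl12 with the atypical receptor Ackr3 (23.5 FPKM) and Tnfsf12 (13.9 FPKM) with Tnfrsf12a. Ccl2 with Ccr2 at 0 and Cx3cl1 with Cx3cr1 at 0.0181 FPKM are among the 11 with a ligand alone, and Il33 (0.256 FPKM) with Il1rl1 is among the 10 with a receptor alone. These pairs were chosen after levels had been seen, so the counts describe the pairs listed.

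**Figure D3:**
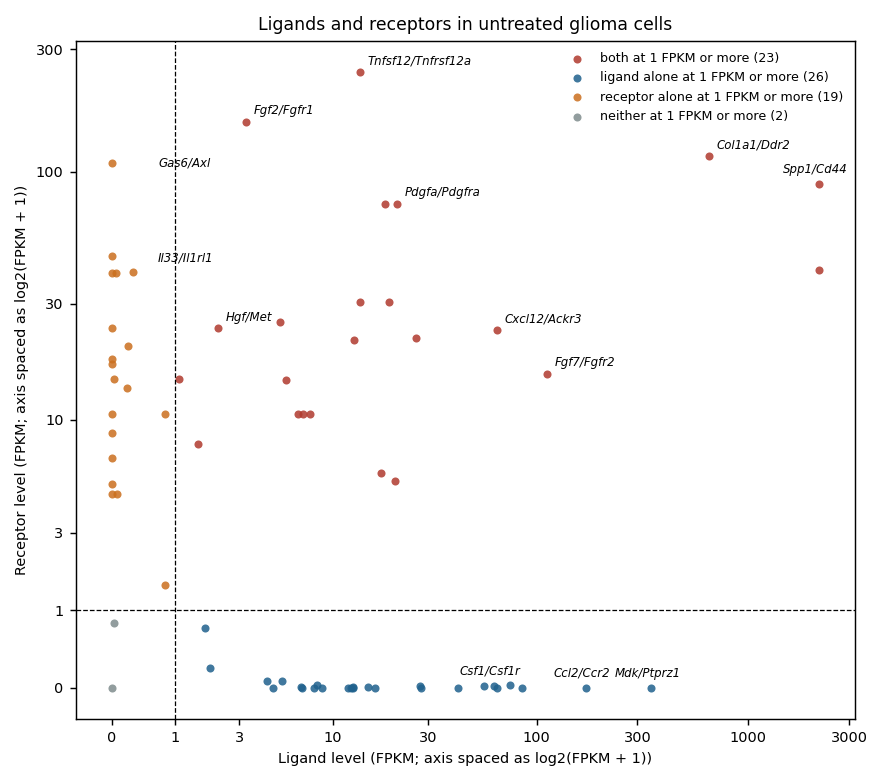
Each point is 1 of 70 listed ligand and receptor pairs in the untreated library, with the ligand's level on the horizontal axis and the receptor's on the vertical, both mean FPKM spaced as log2(FPKM + 1) and 1 FPKM dashed. Pdgfa and Pdgfra lie at 21.2 and 74.8 FPKM, and Mdk, Ccl2 and Csf1 lie along the bottom edge, where the receptor was below 1 FPKM.

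Of 64 transcription factors of mesenchymal and migratory states 40 were present (62.5%), with a median of 5.09 FPKM. The share over all protein-coding genes was 48.9%. Prrx2, a homeodomain factor of mesenchyme, was highest at 129 FPKM, and Tead1, the DNA-binding partner of YAP, was at 60.1 FPKM. Osr1, Tbx15 and Foxf1, which mark mesenchyme in the embryo, were at 46.3, 33.7 and 29.9 FPKM. Snai1 and Zeb1, repressors of E-cadherin, were at 36.4 and 20.5 FPKM, while Cdh1, which encodes E-cadherin, was at 0.0646 FPKM. The bases before the start of Twist2 are printed beside those of Gfap, as a connective tissue marker that was present and an astrocyte marker that was near 0. They are 150 bases in RefSeq (GRCm38.p6), on the plus strand at chr1:91801311-91801460 for Twist2 and on the minus strand at chr11:102897201-102897350 for Gfap, and capitals mark CG dinucleotides.
Twist2: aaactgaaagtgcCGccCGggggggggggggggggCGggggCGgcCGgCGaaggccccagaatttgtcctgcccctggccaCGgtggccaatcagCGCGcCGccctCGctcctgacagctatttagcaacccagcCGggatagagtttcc
Gfap: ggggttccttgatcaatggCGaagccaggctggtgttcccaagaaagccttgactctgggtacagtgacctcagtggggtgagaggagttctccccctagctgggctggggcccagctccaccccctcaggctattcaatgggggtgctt
The stretch of Twist2 holds 12 CG and that of Gfap 1. Counts of CG over all promoters had a median of 7 in 300 bases, where Twist2 had 25 and Gfap 3. Both genes were picked by their level, and a link between CG content and level was not tested.

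AP-1 and ATF factors, which act downstream of growth factor and stress signals, were present in 33 of 39 cases (84.6%) with a median of 28.6 FPKM. Over all protein-coding genes the share was 48.9%. Atf4, of the amino acid and stress response, was at 299.7 FPKM, Junb at 157 and 161 FPKM, Fos at 131 and 127 FPKM and Fosl1 at 62.1 FPKM. STAT, NF-kappaB, IRF and SMAD factors were present in 24 of 29 cases (82.8%), led by Nfkb1 at 60.6 FPKM and Irf1 at 51.0 FPKM. ETS factors were present in 15 of 25 cases (60.0%), led by Elf2 at 36.8 FPKM. Etv4 and Etv5, which respond to ERK signalling, were at 22.6 and 12 FPKM. Among growth and general factors 65 of 80 were present (81.2%), led by Hmga1, a chromatin protein of dividing cells, at 712 FPKM. Egr1, an immediate early gene, was at 151 and 150.1 FPKM and Myc at 102 FPKM. Mycn was listed at 0, and Epas1, which encodes HIF-2α, was at 0.430 FPKM while Hif1a was at 57.1 FPKM.

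Brain patterning factors were present in 34 of 69 cases, a share of 49.3% near the 48.9% of all protein-coding genes, and the present ones included factors of several brain regions. Nr2f2, a nuclear receptor of both brain and mesenchyme, was at 112 and 114 FPKM, and Nfix and Nfic, of the nuclear factor I family, were at 95.2 and 47.4 FPKM. Emx2, of the dorsal telencephalon, was at 6.78 FPKM. En1, of the midbrain and hindbrain boundary, was at 9.19 FPKM, Pax3, of the dorsal neural tube and neural crest, at 10.4 FPKM, and Zic1 and Zic2 at 14.1 and 10.8 FPKM. Lhx2 was at 0.108 FPKM, Nfia, a factor of astrocyte formation, at 0.101 FPKM, and Otx2 at 0. The HOX factors, which pattern the hindbrain, spinal cord and trunk, were mostly listed at 0: 2 of 39 were present, with Hoxa5 highest at 1.69 FPKM, and 31 were listed at 0. Of the remaining HOX values above 0, all were in HoxA except Hoxc5 at 0.00394 FPKM.

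Of 20 SOX factors 5 were present (25.0%, against 48.9% of all protein-coding genes). Sox2 was highest, with Sox4 at 25.6 FPKM, Sox12 at 10.9 FPKM and Sox21 at 2.42 FPKM. Of 37 neural and glial basic helix-loop-helix factors 14 were present (37.8%), led by the broadly expressed Tcf4 and Tcf3 at 58.0 and 50.2 FPKM. Olig1, Olig2, Neurod1 and Neurod2 were listed at 0. Sox2 and Olig2 are printed because both mark precursor-like cells of many human gliomas and 1 of them was present here. The 150 bases before the start in RefSeq (GRCm38.p6, plus strand) lie at chr3:34649845-34649994 for Sox2 and chr16:91225400-91225549 for Olig2, with CG dinucleotides and TATAAA in capitals.
Sox2: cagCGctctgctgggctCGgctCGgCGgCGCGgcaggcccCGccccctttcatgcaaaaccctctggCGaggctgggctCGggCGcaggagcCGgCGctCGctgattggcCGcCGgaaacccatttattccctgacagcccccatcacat
Olig2: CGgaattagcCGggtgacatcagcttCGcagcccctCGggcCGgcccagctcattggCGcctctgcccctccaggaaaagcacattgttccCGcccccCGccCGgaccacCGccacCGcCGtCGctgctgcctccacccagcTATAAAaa
They hold 15 and 13 CG, for the present and the absent gene, and TATAAA occurs in Olig2 alone, starting 8 bases before the start.

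**Figure D4:**
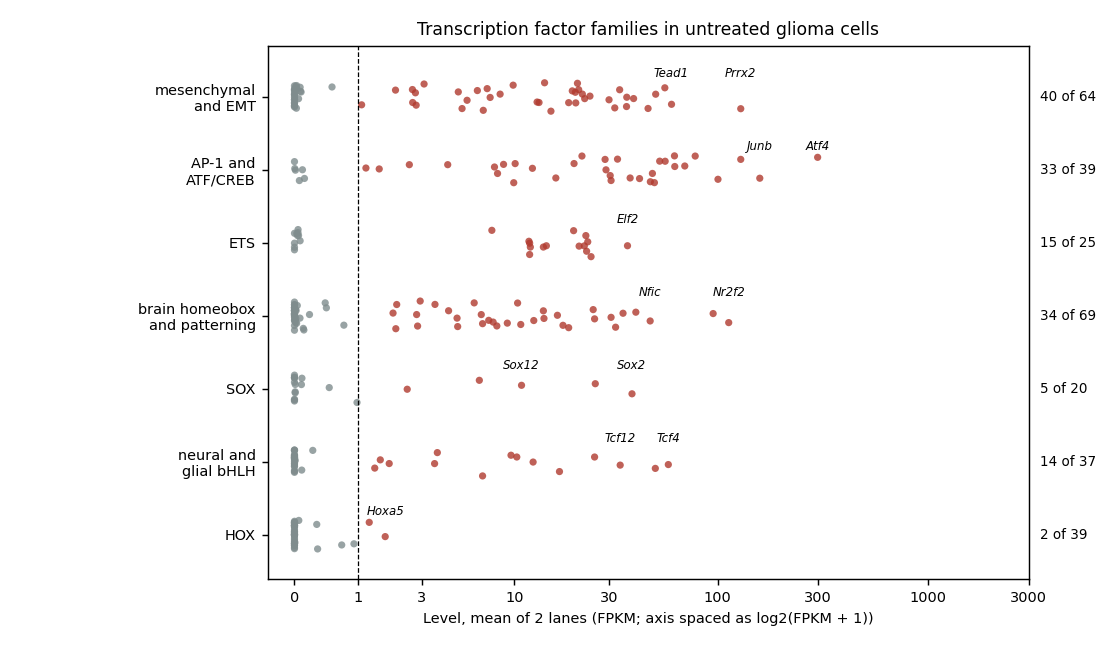
Each point is 1 transcription factor gene of 7 families in the untreated library, at its mean of 2 lanes in FPKM on an axis spaced as log2(FPKM + 1), with the share present at the right and 1 FPKM dashed. Of the AP-1 and ATF/CREB genes 33 of 39 lie right of the line, and of the HOX genes 2 of 39.

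Matrix genes of fibrillar collagen and basement membrane were abundant, and several brain proteoglycans were listed at 0. Of 44 collagen chains 18 were present (40.9%, beside 48.9% of all protein-coding genes). Both chains of type I collagen, Col1a2 and Col1a1, led them, followed by Col3a1 of type III. Col5a2 and Col5a1 of type V were at 146 and 112 FPKM, and Col4a1 and Col4a2 of basement membranes at 102 and 51.7 FPKM. Col6a1 and Col6a2 were at 68.4 and 37.1 FPKM, while Col6a3, which joins them in one trimer, was at 2.21 and 2.60 FPKM. Serpinh1, the collagen chaperone HSP47, was at 1252 FPKM. Cartilage collagen Col2a1 was at 0.0160 FPKM.

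**Figure D5:**
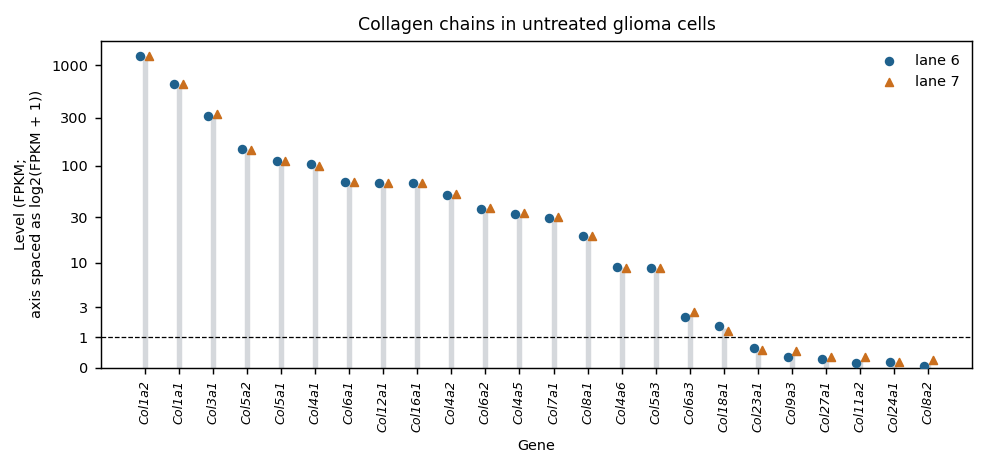
The 24 of 44 collagen chain genes whose mean reached 0.1 FPKM in the untreated library; bars give the mean, circles lane 6 and triangles lane 7, in FPKM on an axis spaced as log2(FPKM + 1), with 1 FPKM dashed. Levels run from 1231 FPKM for Col1a2 down to 0.114 FPKM for Col8a2, and Col18a1 at 1.46 FPKM is the lowest chain present.

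Of 22 laminin and basement membrane genes 16 were present (72.7%, against 48.9% of all protein-coding genes). Sparc, a collagen-binding glycoprotein, was at 791 FPKM, and Nid2 and Nid1, the nidogens, were at 90.1 and 85.6 FPKM. Lamb1 and Lamc1, the β1 and γ1 laminin chains, were at 62.8 and 54.6 FPKM, whereas the α chains were lower, with Lama5 at 9.18 FPKM, Lama4 at 7.69 FPKM and Lama1 at 0. Among 58 glycoprotein and elastic fibre genes 37 were present (63.8%), with Efemp1, a fibulin, at 334 and 336 FPKM and Igfbp4 at 264 and 269 FPKM. Eln, elastin, was at 0.00443 FPKM and Postn, periostin, at 0.0986 FPKM. Of 36 proteoglycan and hyaluronan genes 17 were present (47.2%). Bgn, biglycan, was at 779 FPKM, and the brain proteoglycans Bcan, Ncan and Acan were listed at 0. Of 57 matrix proteases and inhibitors 38 were present (66.7%). Mmp2, a gelatinase, was at 312 and 316 FPKM, with its activator Mmp14 at 142 and 144 FPKM and its inhibitor Timp2 at 287 and 281 FPKM, so all genes of this activation complex were present.

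Genes recurrently altered in glioma were mostly transcribed, in 42 of 44 cases (95.5%, against 48.9% of all protein-coding genes) with a median of 25.5 FPKM. Cdk4, the kinase that INK4A inhibits, was at 348 and 345 FPKM, and Ccnd1, its cyclin partner, at 238 FPKM in each lane. H3f3b and H3f3a, which encode histone H3.3, were at 590.1 and 478 FPKM, and Idh1, an isocitrate dehydrogenase, at 60.2 FPKM. The tumour suppressor genes Trp53 and Nf1 were at 21.9 and 16.5 FPKM. Tert, the telomerase catalytic subunit, was at 1.65 and 1.66 FPKM. Intermediate filament and other cytoskeleton genes were present in 42 of 55 cases (76.4%), with Cfl1, cofilin, at 1732 FPKM. Class I antigen presentation was uneven: B2m, its light chain, was at 525 and 515 FPKM and H2-D1 at 109 and 106 FPKM. Tap1, a peptide transporter subunit, was at 0.586 and 0.497 FPKM and Psmb9, an immunoproteasome subunit, at 0.272 and 0.170 FPKM. By contrast, Tapbp, Psmb10, Tap2 and Psmb8 were present, at 98.4, 44.7, 3.44 and 1.44 FPKM. Class II genes H2-Aa and H2-Eb1 were listed at 0, and 8 of 21 genes of antigen presentation were present (38.1%).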

How the data were processed

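The authors deposited 1 FPKM value per gene and lane, computed from polyadenylated RNA; the tool that made the FPKM is not given in the sources used here, while Bowtie 0.12.2 and build mm8 appear, with no role, in the submitters' processing notes. Files of the 0 µM dose alone were used, and the 4 files of 5 and 10 µM were left out. Of 53460 identifiers, 53356 matched GENCODE M21, which gave gene types; values of 110 symbols with several entries were summed, leaving 53346 symbols. Levels are means of 2 lanes, and lane differences were taken on the log2 scale with a pseudocount of 1 FPKM.

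Depth was fitted so that low values of single-transcript genes became whole fragments (97.8% of 1370 and 98.3% of 1404 genes within 0.1, where chance gives 20%); the fit was tested on simulated data. Intervals cover counting error only, and depth is the limit of low values.

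The members and the 50 lists (1544 genes) were chosen with earlier results of these data known. Genes named are the highest of each list, with at most 6, and defining markers of absent types; others were named after their values were seen, as were the ligand and receptor pairs. A few list members are counted but not reported by name here. With 1 library there is no test and no p-value. Promoter content was not compared by level over all genes, since 76.7% of coding genes had a RefSeq promoter, under the 80% required. The printed promoters are single examples, and their CG counts do not test a link with level. Alternatives were other thresholds, pseudocounts, filters, scaling and single lanes. Python 3.11.15, pandas 2.3.3, numpy 2.4.6, scipy 1.17.1 and matplotlib 3.10.9 were used.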

Additional observations from a re-analysis of the deposited data

How the results depend on the processing

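With 1 culture no value has an error between cultures. At this depth a level below 3 fragments of a 2 kb transcript cannot be told from 0. No paired analysis was possible because the untreated arm holds 1 library and nothing was compared between groups. Of the 50 lists, all kept a count of present genes within 1.5 times under each lane alone, under the largest or the mean entry of a symbol, and under 1 FPKM in both lanes, an alternative chosen after seeing the data. At a threshold of 0.5 FPKM 47 lists did, the exceptions being 4 neuron markers, 2 ependymal and choroid plexus markers and 4 HOX factors. At 5 FPKM 43 did, the exceptions being 5 astrocyte markers, 4 pericyte and smooth muscle markers, 18 G protein-coupled receptors, 9 integrins, 3 connexins and pannexins, 9 basic helix-loop-helix factors and 0 HOX factors. With FPKM scaled to a sum of 1000000, 48 did, the exceptions being 1 ependymal and choroid plexus marker and 4 HOX factors. In these cases the threshold or scale itself changes how many genes count. The share of the 30 highest protein-coding genes was 14.6% to 14.7% in single lanes, 15.3% of protein-coding FPKM, 12.3% without mitochondrial genes and, chosen after seeing the data, 15% without unverified gene models. The lanes' median difference kept within 0.04 to 0.05 under pseudocounts of 0.1 and 5 and a filter of 5 FPKM, and was 0.00 with no filter.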

Other observations

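Among long noncoding RNAs, Gas5, a host of small nucleolar RNAs, was at 352 and 356 FPKM, Neat1, the scaffold of paraspeckles, at 290.4 and 285 FPKM, and Malat1, of nuclear speckles, at 269 and 278 FPKM. Of 30 imprinted and long noncoding genes 13 were present (43.3%, beside 48.9% of all protein-coding genes and 22.1% of all symbols). Gnas was at 464 and 468 FPKM, whereas the imprinted growth genes H19 and Igf2 were at 0.162 and 0.0233 FPKM and Meg3 and Peg3 were listed at 0. Of 7 sex-linked genes none was present: the Y-linked genes Ddx3y, Kdm5d, Uty, Eif2s3y and Usp9y were listed at 0, and Xist, the RNA of the inactive X chromosome, was at 0.0102 FPKM.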
